A study of Arabidopsis thaliana with 24 samples.

Results

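Of 33322 genes with a number in every library, 21 had a mean of at least 15 FPKM over the 12 leaf libraries and stayed under 1 FPKM in each of the 12 shoot apex libraries. FPKM scales reads to transcript length and to the reads in the library, so levels can be compared between genes. Both bounds were met by 23 genes, and the sucrose exporters SWEET11 and SWEET12 among them were left out. All 21 passed the filter on low leaf values and were tested, and all 21 were found in the genome annotation. The genes were chosen by these FPKM values in leaves and apex, so the difference between the tissues is described here without a test.

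The RNA came from Arabidopsis thaliana seedlings of the accession Col-0, all with the same genotype. Plants spent 14 days in cycles of 12 h light at about 100 µmol m-2 s-1 and 12 h dark, and then moved to constant light of about 60 µmol m-2 s-1, which leaves the circadian clock to run without a daily cue. True leaves and shoot apices were dissected from frozen pools of 6 to 10 seedlings at 90, 94, 98, 102, 106 and 110 h in constant light, 2 libraries per tissue and time point. The labels speak of independent experiments and number the replicates 1 and 2, without saying which number belongs to which experiment. P-values therefore measure the spread between these libraries. Every deposited column is named mock, although the labels describe no treatment. Depth was estimated from the FPKM and transcript length of genes with low levels, on the assumption that their commonest level is 1 read. The estimate was 11.1 to 14.3 M reads in leaves and 7.58 to 14.9 M in the apex. Markers matched the labelled tissues. The summed level of 24 photosynthesis and photorespiration genes was 33266 to 50296 FPKM in leaves and 3841 to 6090 FPKM in the apex, and that of 11 meristem and boundary genes was 2.69 to 5.46 FPKM in leaves and 205 to 301 FPKM in the apex.

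Mature leaf cells fix carbon in chloroplasts and turn it into sucrose, which is exported to growing organs. The shoot apex holds the stem cells and the youngest primordia, which import that sugar and divide. Photosynthesis needs iron, and membrane-bound ferric reduction oxidases reduce it so that it can be taken into leaf cells and chloroplasts. Leaves also carry surface receptors that detect microbes, and the hormone salicylic acid drives a defence program whose classical markers are the PR genes. Many leaf processes are timed by the circadian clock, which continues in constant light.

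The 21 genes were sorted by hand into role groups: 4 receptor-like or pathogen-response genes (RLP23, CRK4, ARCK1, AIG1), 2 ferric reductases (FRO6, FRO7), 2 cytochromes P450 (CYP706A6, CYP71A22), 3 other metabolic genes (SPS4F, cPT4, AT5G24210), 2 secreted or cell wall proteins (GC1, EXPA16), a glutaredoxin (AT2G47880), a RING protein (AT3G11110) and 6 of unknown function. All 21 share the tissue pattern by the rule. Promoters of 8 of them are printed: FRO6 and FRO7, which are neighbours, and the 6 genes whose replicate numbers did not overlap in leaves. Each is the 250 bases before the annotated start, from RefSeq, build TAIR10.1, written 5′ to 3′ on the strand of the gene. FRO6 (chr5:20204596-20204845, minus strand) and FRO7 (chr5:20208778-20209027, minus strand) are shown with the G-box CACGTG and the I-box GATAAG, or its complement CTTATC, in capitals.
FRO6: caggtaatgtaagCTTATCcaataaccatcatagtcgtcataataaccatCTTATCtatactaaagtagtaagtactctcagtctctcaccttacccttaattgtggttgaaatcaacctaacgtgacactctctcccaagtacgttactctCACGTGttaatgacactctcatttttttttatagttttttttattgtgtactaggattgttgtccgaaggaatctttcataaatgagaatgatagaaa
FRO7: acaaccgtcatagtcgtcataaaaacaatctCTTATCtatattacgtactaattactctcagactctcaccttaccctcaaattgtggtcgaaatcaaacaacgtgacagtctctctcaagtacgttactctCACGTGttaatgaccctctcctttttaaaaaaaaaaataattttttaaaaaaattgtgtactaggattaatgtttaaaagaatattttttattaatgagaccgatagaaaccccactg
The neighbouring promoters were identical at 70.7% of 273 aligned columns. Their longest shared run was 29 bases, caagtacgttactctCACGTGttaatgac, which began 113 bases before the start of FRO6 and 133 bases before that of FRO7 and holds the G-box. Over both strands, 6.58% of 26705 promoters of this length held CACGTG and 12.2% held GATAAG. Among the 21 genes, CACGTG occurred in FRO6 and FRO7 alone, and GATAAG occurred in 6.

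The other promoters belong to these 6 genes, described further on. They are AIG1 (chr1:12345888-12346137, plus strand), ARCK1 (chr4:7147615-7147864, plus strand), AT5G24210 (chr5:8216941-8217190, plus strand), CRK4 (chr3:16866262-16866511, minus strand), RLP23 (chr2:13862615-13862864, minus strand) and AT1G13470 (chr1:4621586-4621835, minus strand). Capitals mark TTGAC, the core of the W-box bound by WRKY factors, or its complement GTCAA.
AIG1: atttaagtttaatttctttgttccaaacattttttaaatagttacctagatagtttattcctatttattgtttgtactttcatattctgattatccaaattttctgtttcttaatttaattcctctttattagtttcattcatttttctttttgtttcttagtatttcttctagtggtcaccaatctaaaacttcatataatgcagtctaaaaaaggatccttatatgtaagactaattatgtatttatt
ARCK1: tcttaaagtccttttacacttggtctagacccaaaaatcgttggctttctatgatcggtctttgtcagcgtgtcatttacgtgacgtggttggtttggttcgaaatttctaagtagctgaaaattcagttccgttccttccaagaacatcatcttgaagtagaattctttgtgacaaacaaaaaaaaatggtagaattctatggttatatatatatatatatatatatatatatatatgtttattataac
AT5G24210: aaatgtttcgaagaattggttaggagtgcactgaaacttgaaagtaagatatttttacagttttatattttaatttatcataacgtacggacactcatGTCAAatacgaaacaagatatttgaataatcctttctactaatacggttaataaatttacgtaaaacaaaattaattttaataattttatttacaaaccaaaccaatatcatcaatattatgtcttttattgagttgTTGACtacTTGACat
CRK4: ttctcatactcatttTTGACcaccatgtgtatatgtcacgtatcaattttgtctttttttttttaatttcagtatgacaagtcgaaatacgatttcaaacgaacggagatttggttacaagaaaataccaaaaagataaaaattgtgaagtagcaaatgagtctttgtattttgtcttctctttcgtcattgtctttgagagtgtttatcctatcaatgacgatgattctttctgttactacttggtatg
RLP23: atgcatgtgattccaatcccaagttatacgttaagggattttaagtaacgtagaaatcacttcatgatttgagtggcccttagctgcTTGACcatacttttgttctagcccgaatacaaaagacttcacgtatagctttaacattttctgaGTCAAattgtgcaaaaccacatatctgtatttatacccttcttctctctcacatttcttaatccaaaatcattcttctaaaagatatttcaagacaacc
AT1G13470: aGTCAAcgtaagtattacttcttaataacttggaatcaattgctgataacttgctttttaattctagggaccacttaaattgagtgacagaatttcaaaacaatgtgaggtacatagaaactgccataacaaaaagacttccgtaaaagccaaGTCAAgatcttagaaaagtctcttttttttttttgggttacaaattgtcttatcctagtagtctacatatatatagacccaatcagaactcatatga
TTGAC occurred on either strand in 4 of these 6 promoters, not in those of AIG1 and ARCK1. It occurred in 9 of the 21 genes, in 2 of the 8 that passed the test for a daily wave, and in 45.0% of all promoters. The longer forms TTGACC or TTGACT, which contain the core, occurred in the same 4, in 5 of the 21 and in 28.5% of all promoters. The evening element AAAATATCT occurred in 1 of the 21, AT5G24210, which is not among those 8, and in 2.4% of all promoters. The CCA1 binding site AAAAATCT occurred in 1 of the 21, CYP706A6, which is among the 8, and in 6.74% of all promoters. A match here describes the letters and not a bound site.

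Levels in leaves ranged from a mean of 15.8 FPKM (EXPA16) to 63.7 FPKM (CYP706A6), with a median of 21.6 over the 21 genes. Apex means ranged from 0.0574 to 0.472 FPKM, with a median of 0.157. The lowest leaf value divided by the highest apex value was 2.52 to 134, and it was at least 10 in 15 of the 21 genes. The apex values were low rather than absent for several genes. SPS4F, for example, was above 0 in all 12 apex libraries, from 0.297 to 0.812 FPKM. In bulk tissue, fewer cells of a type that makes a transcript and less of it per cell cannot be told apart.

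**Figure D1:**
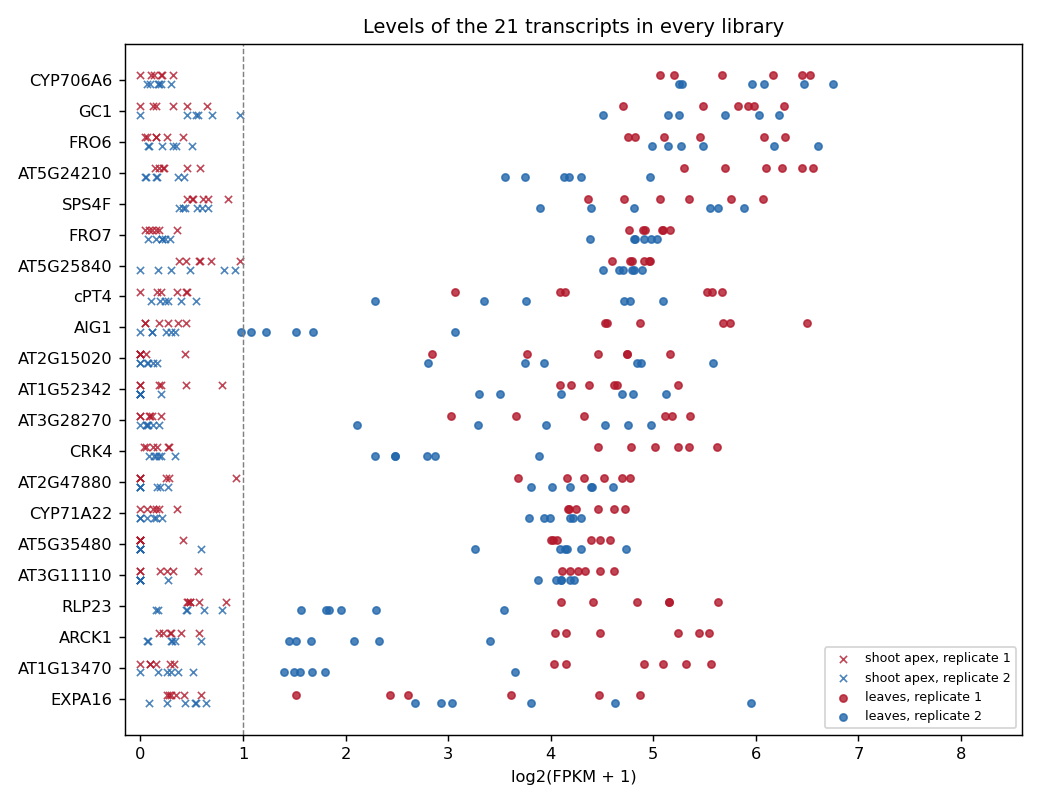
Level of each of the 21 transcripts in every library as log2(FPKM + 1), ordered by leaf mean. Circles are leaf libraries, crosses are apex libraries, colours are replicate numbers, and the dashed line is 1 FPKM. The apex values end at 0.961 FPKM, while AIG1, RLP23, ARCK1, AT1G13470 and EXPA16 come closest to the line in leaves, and AIG1 reaches 0.979 FPKM.

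Values near the bounds show how sharp the selection was. The genes just above the leaf bound were EXPA16, AT1G13470 and ARCK1, at means of 15.8, 16.8 and 16.8 FPKM. Just below it were CYP71B4 at 14.97, CRK21 at 14.4 and the phospholipase PLA2A at 13.2 FPKM. The highest apex values inside the other bound were 0.961 (GC1), 0.954 (AT5G25840) and 0.904 FPKM (AT2G47880). Just outside were AT3G47480 at 1.02, the tyrosine aminotransferase TAT3 at 1.03 and the nitrate transporter NRT1.7 at 1.07 FPKM. The genes left out, SWEET11 and SWEET12, had leaf means of 80.9 and 29.5 FPKM.

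The ferric reductase genes FRO6 and FRO7 lie in tandem on the minus strand, at chr5:20201037-20204595 and chr5:20205302-20208777, 706 bp apart. FRO6, known as a plasma membrane reductase of leaf cells, ranged over the leaf libraries from 26.1 to 96.3 FPKM with a median of 40.4, and its highest apex value was 0.416. FRO7, known for supplying iron to chloroplasts, ranged from 19.9 to 34.9 FPKM in leaves with a median of 29.2, and its highest apex value was 0.28. Neither gene overlapped between the tissues. The same held for all 21 genes, which were chosen by these values (lowest leaf over highest apex value at least 2.52). Of the other FRO genes, FRO3 (24.2 ± 13.8 FPKM in leaves and 7.19 ± 2.36 in the apex, SD, n = 12) and FRO8 (23.5 ± 8.50 and 5.04 ± 2.05) were present in both, and FRO1, FRO4 and FRO5 had means under 1 FPKM in both. FRO2 was higher in the apex, at 0.329 ± 0.129 FPKM in leaves and 1.45 ± 0.498 in the apex. The division of reads between the pair is uncertain. Of all 50-base windows in their exons, 16.2% for FRO6 and 26.6% for FRO7 occurred elsewhere in the genome, and the counting of shared reads is not given in the sources used here.

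CYP706A6, a cytochrome P450, was the highest of the 21, at 32.5 to 107 FPKM in leaves (median 64.2) and at most 0.242 FPKM in the apex. Its tandem neighbours differed from it. CYP706A5, 1094 bp away, was at 21.2 ± 7.27 FPKM in leaves and 5.36 ± 1.14 in the apex, and CYP706A7, 636 bp away, averaged 0.119 and 0.161 FPKM (n = 12 per tissue). CYP71A22 ranged from 12.8 to 25.5 FPKM in leaves with a median of 17.5, and its relative CYP71A21 was at 13.5 ± 3.14 FPKM in leaves and 3.14 ± 0.794 in the apex.

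Sucrose-phosphate synthase carries out the committed step of sucrose synthesis, and 4 genes encode it. SPS4F ranged in leaves from 13.9 to 66.2 FPKM with a median of 36.0. SPS1F had a similar leaf mean, 33.9 ± 11.03 against 37.5 ± 16.9 FPKM for SPS4F (SD, n = 12), but was at 8.50 ± 1.98 FPKM in the apex, where SPS4F was at 0.472 ± 0.141. The cis-prenyltransferase cPT4, of a family that builds long isoprenoid chains, ranged from 3.88 to 49.9 FPKM in leaves, the widest span of the metabolic genes in relative terms. It was the sole cis-prenyltransferase gene of 10 with a leaf mean of at least 15 FPKM. AT5G24210, annotated as an alpha/beta-hydrolase, ranged from 10.7 to 93.3 FPKM.

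GC1 (AT1G22690) is a gibberellin-regulated (GASA) protein gene whose promoter is widely used to drive expression in guard cells, the cells that open and close stomata. It ranged from 21.7 to 76.7 FPKM in leaves (median 53.3) and from 0 to 0.961 in the apex. A list of 11 guard cell and myrosin cell genes, GC1 included, summed to 1761 to 1991 FPKM in leaves and 222 to 535 FPKM in the apex. Most of the sum was TGG1 (means of 1325 FPKM in leaves and 200 in the apex) and TGG2 (484 and 137). Of the rest, GC1, KAT1, KAT2, MYB60, SLAC1, FAMA and HT1 had higher means in leaves. OST1 (4.70 and 5.58 FPKM) and MYB61 (0.157 and 0.384) had higher means in the apex. The part of guard cell number in the difference was not tested. EXPA16, an alpha-expansin, belongs to a family that loosens cell walls, and 9 of its 26 genes had an apex mean of at least 15 FPKM. EXPA16 itself reached at most 0.562 FPKM there.

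The test for a daily wave asked whether each gene's 12 leaf values as log2(FPKM + 1) followed a cosine of 24 h, with limma across 18200 genes and Benjamini-Hochberg adjustment. It was passed by 8 of the 21 genes, against 38.5% of all genes tested, so the share of 38.1% was near the background. Among genes with a leaf mean of at least 15 FPKM, 57.2% passed. This fit had no term for the replicate number. With such a term (a block), 14 of the 21 passed, against 53.9% of all genes. Within single replicate numbers, with 6 libraries each, 12 of the 21 passed in replicate 1, against 23.9% of all genes tested there, and 11 passed in replicate 2, against 38.0%. The share among genes with a leaf mean of at least 15 FPKM is not given for these smaller fits. Of the marker lists, in the fit of 12 libraries without the block, 12 of 12 clock genes, 22 of 24 photosynthesis genes, 8 of 11 cold genes, 7 of 12 jasmonate synthesis genes and 3 of 10 tested guard cell genes passed. The count was 1 each among 12 phloem genes, 5 tested jasmonate response genes, 5 tested senescence genes and the single tested meristem gene, and 0 of 19 salicylate and defence genes. The amplitude, the distance from the mean level to the peak, had a median of 0.63 on the log2 scale over the 21 genes and 0.18 over all genes tested. It was 0.23 over genes with a leaf mean of at least 15 FPKM. An amplitude cannot be negative, so spread between libraries alone gives one above 0. The median over the 21 includes genes that did not pass, such as AIG1 (0.62 ± 0.80, SE) and RLP23 (0.61 ± 0.58). The window spans 20 h, so these data do not separate a daily rhythm from any other smooth change, and a peak between 110 and 114 h lies outside the sampled times.

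In subjective day, when the lights would have been on, FRO6, GC1 and CYP706A6 peaked in that wave. FRO6 rose from 26.1 and 34.4 FPKM at 90 h (replicates 1 and 2) to 76.9 and 96.3 at 102 h and fell to 33.4 and 30.8 at 110 h. Both replicates were highest at 102 h and did not overlap with those at 90 h, and the amplitude was 0.75 ± 0.11 (SE; limma adjusted p = 0.000696) with a fitted peak at 100.7 h. Its tandem partner FRO7 stayed between 19.9 and 34.9 FPKM with an amplitude of 0.12 ± 0.08 (limma adjusted p = 0.475), and the difference between the pair was not tested. GC1 was highest at 98 h in both replicates, at 76.7 and 74.0 FPKM, with an amplitude of 0.63 ± 0.14 (limma adjusted p = 0.00921). At 106 h the replicates of GC1 were apart, at 62.1 and 21.7 FPKM. CYP706A6 was lowest at 94 h, at 32.5 and 37.0 FPKM, and stood at 86.3 and 107 FPKM at 106 h. At 110 h, in subjective night, it was at 91.4 and 87.7 FPKM, and replicate 1 was highest there. Its replicates followed each other closely, with an amplitude of 0.79 ± 0.05 (limma adjusted p = 2.37e-06) and a fitted peak at 107.4 h, near the end of subjective day.

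The other 5 peaked in subjective night, when it would have been dark. Among all genes that passed, 63.7% peaked in that part of the day. SPS4F fell from 53.0 and 58.0 FPKM at 90 h to 19.6 and 13.9 at 102 h and returned to 66.2 and 45.9 at 110 h (amplitude 0.89 ± 0.09, limma adjusted p = 5.03e-05). The isoprenoid gene cPT4 had the largest amplitude of the 21, 1.33 ± 0.18 (limma adjusted p = 0.000374). It fell from 46.6 and 33.2 FPKM at 90 h to 7.40 and 3.88 at 102 h and was at 49.9 and 26.4 at 110 h. AT3G28270, a DUF677 protein, took the same shape, from 33.6 and 30.6 FPKM at 90 h to 7.16 and 3.32 at 102 h, with an amplitude of 1.21 ± 0.18 (limma adjusted p = 0.000928). For all of these, both values at 102 h lay below every value at 90 and 110 h.

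The remaining night genes encode proteins of unknown function. AT1G52342 was lowest at 102 h, at 16.04 and 8.82 FPKM, and stood at 36.9 and 26.8 FPKM at 110 h (amplitude 0.69 ± 0.12, limma adjusted p = 0.00299). AT2G15020 was later in the fitted cycle. Its peak lay 21.6 h after subjective dawn, against 16.4 h (AT1G52342) to 18.2 h (AT3G28270) for the other night genes. AT2G15020 was highest at 94 h, at 34.9 and 47.0 FPKM, and lowest at 106 h, at 6.18 and 5.96 FPKM. The amplitude was 1.13 ± 0.11 (limma adjusted p = 4.25e-05). Its lowest time lay 4 h after the one that SPS4F, cPT4, AT3G28270 and AT1G52342 shared.

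**Figure D2:**
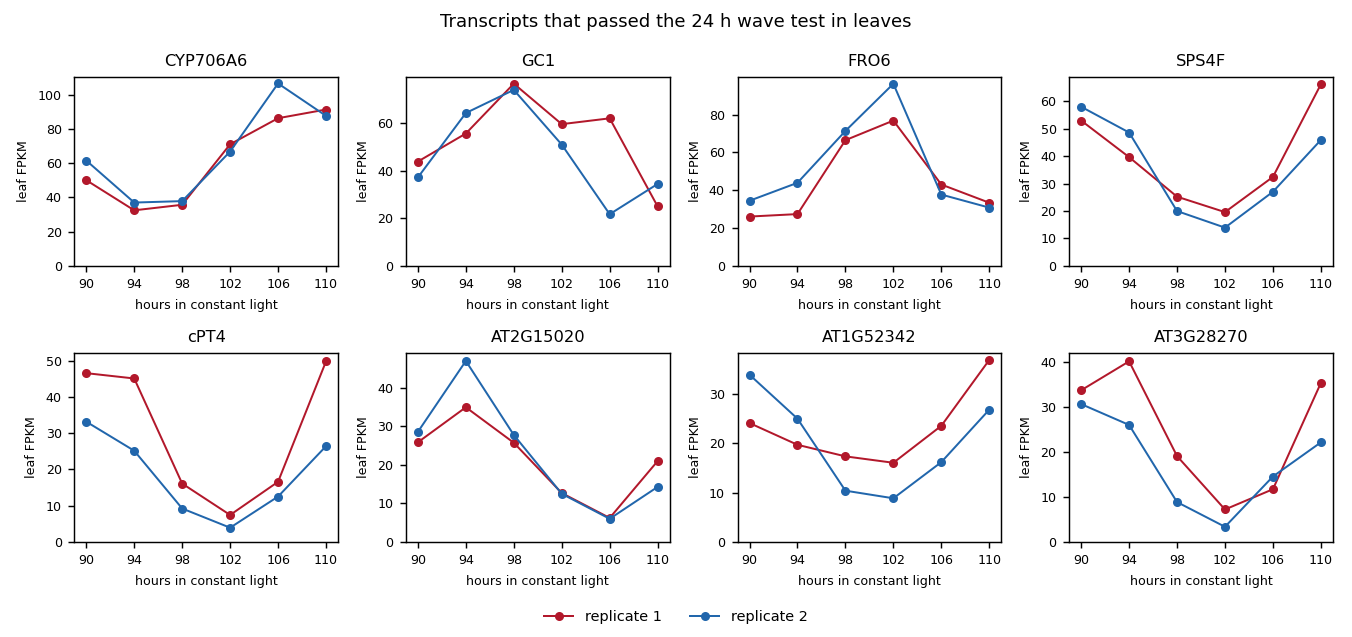
Leaf FPKM against hours in constant light for the 8 transcripts that passed the 24 h wave test, with a line for each replicate number. FRO6 is highest at 102 h, where SPS4F, cPT4, AT1G52342 and AT3G28270 are lowest.

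A test that compares the 6 time points without a set shape passed 6 of the 21 genes, against 17.6% of all genes and 31.1% of those with a leaf mean of at least 15 FPKM, and lost GC1 and AT1G52342 from the 8. The replicate numbers deviated together across leaf time points. With the replicate number as a block, the wave test passed 14 of the 21 genes, against 53.9% of all genes, and the time point test passed 10, against 36.8%. The genes added to the wave were AT5G24210 (blocked limma adjusted p = 0.016), CRK4 (0.00529), CYP71A22 (0.00618), AT3G11110 (0.00619), RLP23 (0.0211) and ARCK1 (0.0116). Their amplitudes were 0.18 to 0.71, from AT3G11110 to ARCK1. With the block, 11 of the 19 salicylate and defence genes passed the wave test, against 0 without it. The blocked count was 2 each for the phloem, jasmonate response and senescence lists, and for every other list it stayed within 1.5 times the count without the block.

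The replicate numbers in leaves differed for many of the genes. Over 6 time points, 10 of the 21 were higher in replicate 1 by limma at an adjusted p of 0.05, against 19.2% of all 18200 genes tested and 23% of those with a leaf mean of at least 15 FPKM. None was higher in replicate 2, against 9.59% of all genes and 15.6% of those with a leaf mean of at least 15 FPKM. At an unadjusted limma p of 0.05 the count in either direction was also 10, against 40.3% of all genes. In either direction 28.8% of all genes differed, and 38.7% of those with a leaf mean of at least 15 FPKM. The median difference was 0.24 on the log2 scale over the 21 genes and 0.03 over all genes. For 6 genes every replicate 1 value lay above every replicate 2 value, against 5.15% of all genes in that direction and 6.25% in either. The leaf mean that chose the genes covers both replicates, so genes high in replicate 1 alone could enter. AIG1, AT1G13470, ARCK1, RLP23 and CRK4, all among the 10 and the 6, did not meet the leaf bound without replicate 1. The choice of genes thus favoured these counts and the median, which are a description and not a test against all genes.

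The 4 genes grouped as receptor-like or pathogen-response, a grouping made with the results known, were among these 6. None of these 4 met the leaf bound without replicate 1. Their choice therefore favoured high values in replicate 1, and their gaps are not independent of it. RLP23, the receptor for a peptide of microbial necrosis-inducing proteins, was at 16.2 to 48.6 FPKM in replicate 1 and 1.96 to 10.6 in replicate 2, and replicate 1 was higher by 2.71 ± 0.22 on the log2 scale (SE; limma adjusted p = 0.000154). CRK4, a cysteine-rich receptor-like kinase, was at 20.96 to 48.3 FPKM in replicate 1 and 3.87 to 13.8 in replicate 2, a difference of 2.28 ± 0.14 (limma adjusted p = 8.17e-05). Neither receptor overlapped between the replicate numbers. ARCK1, a receptor-like kinase of the cytosol known from abscisic acid signalling, was at 15.5 to 45.6 FPKM against 1.72 to 9.65, a difference of 2.75 ± 0.23 (limma adjusted p = 0.000164). AIG1, the GTP-binding protein gene induced by a bacterial avirulence protein, had the largest gap, with 22.1 to 89.5 FPKM against 0.979 to 7.36 and a difference of 3.72 ± 0.29 (limma adjusted p = 0.000141).

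The others of the 6 were AT1G13470, a DUF1262 protein, at 15.4 to 46.4 FPKM in replicate 1 and 1.63 to 11.6 in replicate 2, and the hydrolase AT5G24210, at 38.3 to 93.3 against 10.7 to 30.2. Replicate 1 was higher by 2.92 ± 0.25 for AT1G13470 (limma adjusted p = 0.000164) and by 1.92 ± 0.14 for AT5G24210 (limma adjusted p = 0.000125). AT1G13470 also missed the leaf bound without replicate 1, while AT5G24210 still met it. The ratio of replicate 1 to replicate 2 at a single time point varied widely, from 6.81 to 48.0 for AIG1, 4.43 to 24.5 for ARCK1 and 3.0 to 6.31 for AT5G24210. The lowest ratio stood at 110 h for AIG1, ARCK1, AT1G13470, CRK4 and RLP23. In replicate 2 all 6 genes were highest at 110 h, as were 25.2% of all genes tested. AT1G13470 stood there at 11.6 FPKM against 1.63 to 2.47 at the other times, and AIG1 at 7.36 against 0.979 to 2.22.

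**Figure D3:**
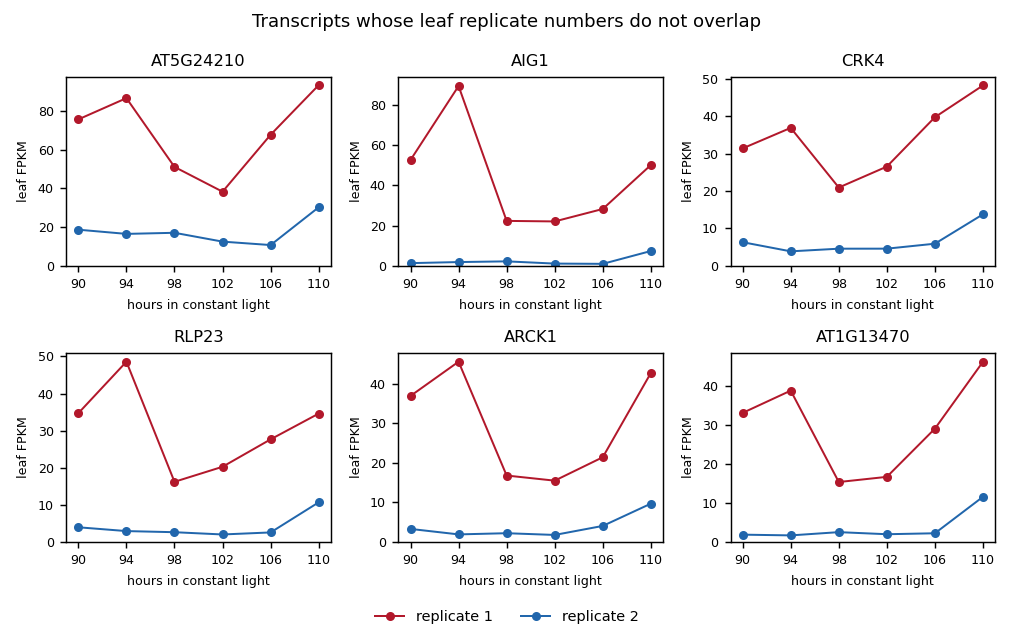
Leaf FPKM against hours in constant light for the 6 transcripts whose replicate numbers did not overlap, with a line for each replicate number. In replicate 2 each line ends at its highest value at 110 h, still below the lowest value of replicate 1.

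A list of 19 salicylate and defence genes moved with the same split, and none of the 21 genes is in it. All 19 were higher in leaf replicate 1, with a median of 1.92 on the log2 scale, and 18 of the 19 were highest at 110 h within replicate 2. Over all genes tested, 19.2% were higher in replicate 1, 9.59% were higher in replicate 2 and 25.2% were highest at 110 h within replicate 2. This list and those below were chosen with earlier results of these data known. PR1, the usual marker of salicylate defence, averaged 220.8 FPKM in leaf replicate 1 and 7.57 in replicate 2, and the limma difference was 5.52 ± 0.55. The list summed to 1082 to 2380 FPKM in leaf replicate 1 and 209 to 895 in replicate 2, and to 110 to 203 and 80.9 to 150.4 FPKM in apex replicates 1 and 2. Of 12 jasmonate synthesis genes 7 were higher in replicate 1, as were 2 of 5 tested jasmonate response genes, 3 of 5 senescence genes, 4 of 12 phloem genes and 1 of 10 guard cell genes. None of the 12 clock genes, 11 cold genes or 24 photosynthesis genes was higher in replicate 1, and 1, 2 and 6 of them were higher in replicate 2. The part of the defence program in the difference between replicates of the 21 genes was not tested.

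Smaller differences in the same direction were found for 4 more genes. cPT4 was higher in replicate 1 by 0.68 ± 0.07 (limma adjusted p = 0.00037) and at every time point, with replicate means of 30.3 ± 18.9 and 18.4 ± 11.5 FPKM (SD, n = 6). CYP71A22 differed by 0.33 ± 0.06 (limma adjusted p = 0.00383) and the RING protein AT3G11110 by 0.24 ± 0.06 (limma adjusted p = 0.0144). AT3G28270 differed by 0.51 ± 0.16 with a limma adjusted p of 0.0429, and this call was lost under 10 of 18 alternative settings. The replicate ranges of these 4 overlapped. Both the wave test without the block and the replicate test were passed by cPT4 and AT3G28270. With the block, the wave test also passed AT5G24210, CRK4, CYP71A22, AT3G11110, RLP23 and ARCK1, all of them called in the replicate test.

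**Figure D4:**
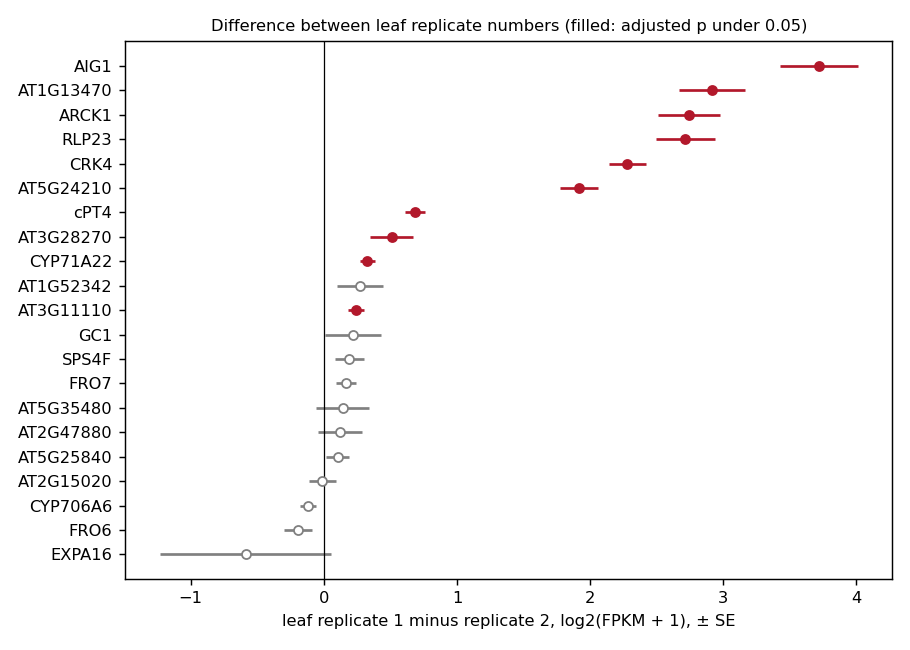
Difference between leaf replicate 1 and replicate 2 for the 21 transcripts on the log2(FPKM + 1) scale, with bars of 1 SE and filled points for a limma adjusted p under 0.05. The 6 largest differences run from 1.92 (AT5G24210) to 3.72 (AIG1), and the next is 0.68 (cPT4).

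Whether the wave itself differed between the replicate numbers was tested as an interaction. No gene of the 21 and none of 18200 passed by limma (0% of all genes), and at an unadjusted p of 0.05 the counts were 5 and 1371. The lowest adjusted p among the 21 was 0.405, for AT1G52342, whose amplitude was 0.49 in replicate 1 and 0.95 in replicate 2. Of the 21 genes, 16 had a leaf mean of at least 15 FPKM in replicate 2 alone. Below it were AIG1 (2.48 FPKM), AT1G13470 (3.60), ARCK1 (3.77), RLP23 (4.08) and CRK4 (6.52).

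Neither test was passed by FRO7, EXPA16, AT2G47880, AT5G25840 and AT5G35480. AT5G25840, a DUF1677 protein, had the smallest coefficient of variation of the 21, at 26.6 ± 2.69 FPKM (SD, n = 12) and a range of 21.8 to 30.4. FRO7 followed with a coefficient of variation of 13.7% and AT3G11110 with 14.98%. EXPA16 was variable. It stood at 1.85 FPKM in replicate 1 and 61.0 in replicate 2 at 106 h, with a coefficient of variation of 105%, and without replicate 2 its leaf mean fell to 12.0 FPKM. The glutaredoxin AT2G47880 ranged from 11.9 to 26.3 FPKM and AT5G35480, of unknown function, from 8.62 to 25.7.

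**Figure D5:**
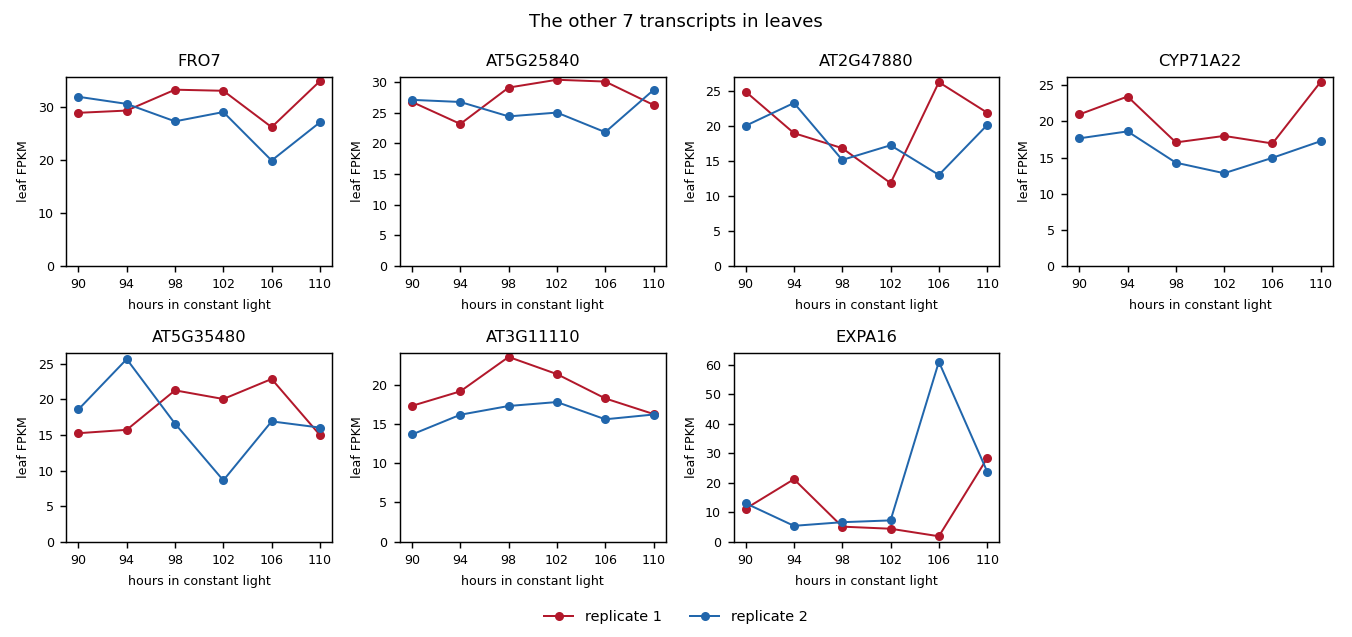
Leaf FPKM against hours in constant light for the other 7 transcripts, with a line for each replicate number. They did not pass the wave test without the replicate block, and their replicate numbers overlapped. FRO7 stays between 19.9 and 34.9 FPKM, and EXPA16 reaches 61.0 FPKM in replicate 2 at 106 h.

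Of 40 adjacent genes that are not among the 21, 22 had an apex mean of at least 1 FPKM, 17 had means under 1 FPKM in both tissues, and 6 had a leaf mean of at least 15 FPKM. The use of strand in counting is not given in the sources used here, so levels are less certain where gene models overlap on opposite strands. That concerned SPS4F with AT4G10130 (167 bp), cPT4 with cPT5 (148 bp), ARCK1 with AT4G11900 (40 bp), GC1 with AT1G22700 (11 bp) and RLP23 with VAMP725 (6 bp). All 5 neighbours had apex means from 1.13 to 26.2 FPKM, above those of the overlapped genes.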

How the data were processed

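FPKM values per gene were deposited by the authors in a table of 24 libraries. Per the submitters' processing notes, STAR 2.5.0c, HOMER and the TAIR10 build were used; settings and the counting of shared reads are not given in the sources used here. A gene with a text cell was left out of 33323. Raw counts were not used here, so depth was estimated from the FPKM and transcript length of genes with low levels.

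The 21 genes, their role groups, 10 marker lists and the tests were chosen with earlier results of these data known. Every one of the 21 is named, with the 3 genes nearest each bound. Genes with at least 1 FPKM in at least 2 leaf libraries (18200) entered linear models of log2(FPKM + 1). These used limma 3.58.1 in R 4.3.3 with a trended prior, p-values were adjusted by Benjamini-Hochberg, and 0.05 was the limit for a call. A fold on that scale understates the change of low genes. The 12 leaf libraries were fitted alone, because genes near 0 in the apex would lower a pooled spread. F-tests covered the 24 h cosine and sine terms, the 6 time points, and the wave by replicate interaction; the replicate difference was taken with time as a factor. Replicate differences correlated between leaf time points in all 15 pairs (0.57 to 0.78, across genes, which are not independent). The main wave and time point fits did not use this pairing. Fits with the replicate number as a block, which do, are given beside them. Alternatives were another pseudocount, filter, scaling, period, robust fit, all 24 libraries, and each library left out. Promoters were read from RefSeq's TAIR10.1 genome with Biopython 1.88; pandas 2.3.3 and numpy 2.4.6 handled tables and matplotlib 3.10.9 drew plots, under Python 3.11.15.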

Additional observations from a re-analysis of the deposited data

How the results depend on the processing

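The number of genes that met the bounds depended on them. It was 33 with a leaf mean of at least 10 FPKM and 13 with at least 20, 11 with apex values under 0.5, 46 with apex values under 2 and also 46 with an apex mean under 1, 38 after rescaling the libraries, and 22 without replicate 1 and 32 without replicate 2. Without replicate 1 the genes AIG1, AT1G13470, ARCK1, RLP23 and CRK4 no longer met them, and without replicate 2 EXPA16 did not.

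The replicate block raised the genes passing the wave test from 8 to 14 of the 21. It raised those passing the time point test from 6 to 10, and over all genes from 3196 to 6690; it was not part of the replicate test. Leaving out single leaf libraries gave 8 to 10 for the wave (6098 to 6887 over all genes), 5 to 8 for the time points and 9 to 10 for the replicate difference. With a replicate number left out, 6687 (without replicate 1) and 4249 (without replicate 2) of all genes and 11 and 12 of the 21 passed the wave test, from fewer libraries. The interaction of wave and replicate passed 2 genes of all in a fit of all 24 libraries, and 0 to 2 with a single library left out. GC1 lost its wave call without replicate 2 (limma adjusted p = 0.0516, range 0.000504 to 0.0516 over 23 alternatives). AT3G28270 lost its replicate call in 10 of 18 (range 0.00599 to 0.117). Across the wave alternatives, 18 results of single genes among the 21 gained a call. No called direction reversed in the alternatives run, but replicate differences without a call crossed 0 for EXPA16, GC1, AT2G15020, AT2G47880 and AT5G35480 (EXPA16 from -1.06 to 0.18). The 2 libraries per group and the 20 h window limit what the time course can show, and the depth was estimated rather than given.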
